A study of Homo sapiens with 4 samples.

Results

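Glucose transporters and hexokinases were followed as 9 genes, 5 transporters (SLC2A1, SLC2A3, SLC2A5, SLC2A6 and SLC2A8) and 4 hexokinases (HK1, HK2, HK3 and HKDC1), chosen by symbol among 65217 human genes in the deposited gene table. All 9 were found in it by their GENCODE identifiers. The libraries came from SEM cells, an established human B-cell precursor acute lymphoblastic leukaemia line with the KMT2A-AFF1 (MLL-AF4) fusion, grown in medium with 25 mM glucose at 21% oxygen and then xenotransplanted into immunodeficient mice aged 6 to 10 weeks. The groups were leukaemic cells from brain (2 libraries) and from spleen (2 libraries), enriched on a Ficoll gradient. For the brain site the protocol names the leptomeninges. Neither the mouse strain nor the purity read by flow cytometry was given in the sources used here. Each library pooled RNA of 5 mice, so the spread between mice was not measured, and the replicate number marks 1 of 2 independent occasions.

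Glucose enters most cells through facilitative transporters of the SLC2A (GLUT) family and is held there once a hexokinase has phosphorylated it to glucose 6-phosphate. SLC2A1 and SLC2A3 encode GLUT1 and GLUT3, the main basal and the high-affinity glucose carriers of blood cells and brain, and SLC2A5 encodes GLUT5, which carries fructose. HK1 is the widely expressed housekeeping hexokinase, and HK2 is the isozyme typical of muscle, fat and many tumours. Both can dock on the outer mitochondrial membrane, and SLC2A1, SLC2A3 and HK2 are textbook targets of the hypoxia-inducible factors.

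In cells from brain, 3 of the 6 genes that could be tested rose: HK2 by 3.25-fold, SLC2A3 by 2.51-fold and SLC2A1 by 2.37-fold. None of the 6 fell. Of all genes tested, 1.63% passed the test with a higher level in brain and 0.387% with a lower one. SLC2A5 was 1.92-fold higher and did not pass the test, HK1 (1.26-fold) and SLC2A6 (1.13-fold) were closer to spleen and did not pass, and SLC2A8, HK3 and HKDC1 were at or near 0 counts in every library. Scaled by transcript length, HK1 was the more abundant hexokinase in spleen and HK2 the more abundant one in brain. By counts not scaled by length, HK2 was the higher of them at both sites.

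RefSeq promoter windows (GRCh38.p14) were on hand for 8 of the 9 genes. No window for SLC2A3 was among them. The 4 sequences below are shown because HK2 and SLC2A1 rose and SLC2A6 did not pass the test. Each runs 5′ to 3′ on the strand of its gene, from 250 bases before the start of transcription to the last base before any exon of the gene in GENCODE. Capitals mark ACGTG and GCGTG on either strand, the core of the element that hypoxia-inducible factors bind, with CACGT and CACGC as the reverse complements. CACGTG, an E-box, contains ACGTG on both strands. The 2 HK2 windows belong to the starts of its transcripts HK2-201 and HK2-202.
HK2, start of HK2-201, chr2:74833877-74834126, plus strand: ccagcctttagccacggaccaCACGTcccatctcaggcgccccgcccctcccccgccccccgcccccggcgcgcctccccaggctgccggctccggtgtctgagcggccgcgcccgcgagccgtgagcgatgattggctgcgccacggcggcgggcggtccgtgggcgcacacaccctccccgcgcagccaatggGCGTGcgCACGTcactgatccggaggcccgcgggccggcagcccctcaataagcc
HK2, start of HK2-202, chr2:74834920-74835169, plus strand: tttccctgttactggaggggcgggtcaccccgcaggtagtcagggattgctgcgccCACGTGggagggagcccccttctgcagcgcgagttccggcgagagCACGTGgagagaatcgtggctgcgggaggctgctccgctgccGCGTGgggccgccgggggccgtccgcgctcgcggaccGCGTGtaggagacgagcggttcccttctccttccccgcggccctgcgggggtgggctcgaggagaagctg
SLC2A1, chr1:42958894-42959118, minus strand: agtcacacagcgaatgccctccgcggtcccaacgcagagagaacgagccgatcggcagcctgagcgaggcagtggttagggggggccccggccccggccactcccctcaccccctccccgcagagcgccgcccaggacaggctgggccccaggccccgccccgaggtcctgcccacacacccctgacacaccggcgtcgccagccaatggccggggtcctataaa
SLC2A6, chr9:133479128-133479349, minus strand: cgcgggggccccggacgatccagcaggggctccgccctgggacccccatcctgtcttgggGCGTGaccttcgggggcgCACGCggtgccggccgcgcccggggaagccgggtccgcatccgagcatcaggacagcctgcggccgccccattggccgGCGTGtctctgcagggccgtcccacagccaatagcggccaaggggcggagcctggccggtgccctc
The first HK2 window held ACGTG at -229 and -48 and GCGTG at -55, counted from the start to the first letter of the match. The second held CACGTG at -194 and -149 and GCGTG at -107 and -70. SLC2A1 held neither motif, while SLC2A6 held GCGTG at -190, -172 and -94. Of the 15 windows of the 8 genes, 4 held ACGTG or GCGTG: both of HK2, that of SLC2A6 and 1 of the 7 of HK1. That HK1 window had 230 of its 250 bases in exons of the gene. Of the HK1 windows, 2 nearly coincide (from 69269750 and from 69269755), at starts of transcripts with 0 counts. The 15 are therefore not separate promoters in use, and 4 of 15 cannot be compared with the share over all windows. Of all 35116 windows of the same 250 bases, 43.2% held at least 1 of these motifs (18.5% ACGTG, 32.2% GCGTG), and 6.34% held CACGTG. A match is a description of the letters, not of a bound site. The windows of HK2, SLC2A1 and SLC2A6 were rich in G and C, at 76.8% and 71.6%, 72.4% and 76.8%, where the median window had 58%. The SLC2A5 window had 46.8% and 3 CG dinucleotides, against 24 in that of SLC2A1 and 34 and 29 in those of HK2. Of its 250 bases 154 lay in exons of the gene, against 25 for SLC2A1 and 0 for HK2.

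Total gene counts were 36913437 and 33055465 for the brain libraries, against 32972842 and 26266136 for spleen. The spleen libraries were less alike than the brain libraries (correlation of log2 CPM across genes 0.986 against 0.996; genes are not independent replicates). CPM, the level used across libraries, is the count scaled to library size with TMM factors. All 10 markers of SEM and B-cell precursor leukaemia were tested, 1 called higher (CD22, log2 fold change 1.48) and 1 lower (CD34, log2 fold change -1.37). Their summed level was 4824 and 4252 CPM in brain and 3913 and 3490 CPM in spleen. The largest part was FLT3, at 2457 and 2096 CPM in brain and 1987 and 1566 CPM in spleen. The 4 T and NK cell markers summed to 51.7 to 61.3 CPM in brain and 71.6 to 86.7 CPM in spleen, nearly all of it NKG7, with CD3D and CD2 at 0 in every library. The 4 myeloid markers summed to at most 35.2 CPM in brain and to 35.3 and 37.4 CPM in spleen. Most of it was CSF1R, at 30.3 and 22.9 CPM in brain and 29.0 and 26.2 CPM in spleen. On average MPO had 2.19 CPM in brain and 4.98 CPM in spleen, LYZ 2.60 and 3.65 CPM, and CD14 0.180 and 0.144 CPM. The 6 markers of neurons and glia summed to 0.937 to 1.95 CPM in brain and 0.910 to 1.91 CPM in spleen, with SNAP25 at 0. Most of it was CX3CR1, at 1.81 and 0.644 CPM in brain and 1.49 and 0.752 CPM in spleen. The 3 erythroid markers summed to at most 0.121 CPM. The 4 endothelial and fibroblast markers summed to at least 51.9 CPM in brain and to 33.5 and 34.1 CPM in spleen. Most of it was PECAM1, which leukocytes also express, at 72.4 and 49.7 CPM in brain and 33.4 and 29.9 CPM in spleen (adjusted p = 0.0672). None of the markers of other cell types was called. Mouse transcripts took 1.84% ± 0.560 of all counts in brain and 5.32% ± 1.42 in spleen (SD, n = 2), and the part of this and of PECAM1 in the differences described below was not tested. In these bulk libraries a change in the makeup of the cells and a change in RNA per cell cannot be told apart.

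Brain was set against spleen with edgeR's quasi-likelihood test over 17075 genes, and genes under an adjusted p of 0.05 were called. A positive log2 fold change means a higher level in brain. The share called was 2.02% of all genes, made up of 1.63% with a higher and 0.387% with a lower level in brain. The 6 members with counts enough to be tested had from 336 to 10687 counts in every library, and 3 of the 6 were called higher. For 5 of the 6 both brain libraries lay above both spleen libraries, as they did for 30.2% of all genes tested, and for 0 of the 6 both lay below, as they did for 26.7%. The median log2 fold change of the 6 was 1.09, against 0.04 over all genes. Without spleen replicate 2 the log2 fold changes of the 6 ran from 0.36 (SLC2A6) to 1.78 (HK2). Without spleen replicate 1 they ran from -0.037 (SLC2A6) to 1.59 (HK2). Each of these fits takes the lone spleen library to vary as the brain pair did. In the alternatives that kept all 4 libraries 3 or 4 members were called, HK2, SLC2A1 and SLC2A3 among them each time. Over all genes tested the number called in those alternatives ran from 201 to 2150.

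HK2 (ENSG00000159399) lies on chromosome 2 (74834127 to 74893359, GRCh38, plus strand). Its level was 289 and 274 CPM in brain and 82.6 and 90.3 CPM in spleen. The groups were far apart, and the gap between them was many times the gap within either. The log2 fold change was 1.70 ± 0.14 (SE, adjusted p = 0.00182), and HK2 ranked 20 by p among all genes tested. Within occasions the log2 ratio of brain to spleen was 1.81 in the first and 1.60 in the second. Over the 15 alternatives the log2 fold change was between 1.46 and 1.78.

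HK1 (ENSG00000156515), on chromosome 10 (69269984 to 69401884, plus strand), had 107 and 87.5 CPM in brain and 72.8 and 82.3 CPM in spleen. The brain libraries were above the spleen libraries, but the gap between brain replicate 2 and spleen replicate 2 was smaller than the gap within either group. Its log2 fold change of 0.33 ± 0.16 did not pass (adjusted p = 0.294), and the ratios within occasions were 0.56 and 0.09. Without spleen replicate 2, a fit that leaves 1 spleen library, its log2 fold change was 0.43. Over all fits without 1 library it ran from 0.17 to 0.47.

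The order of the main hexokinases differed by site once their levels were scaled by transcript length. On CPM, which is not scaled by length, HK2 was above HK1 in every library (82.6 against 72.8 and 90.3 against 82.3 in spleen). On TPM, a level scaled by transcript length that allows comparison between genes within a library, HK2 stood at 68.6 and 68.2 in brain and at 18.3 and 17.9 in spleen. HK1 stood at 42.7 and 37.8 in brain and at 27.0 and 26.3 in spleen. The ratio of HK2 to HK1 was therefore 1.60 and 1.81 in brain, and 0.678 and 0.680 in spleen. HK2 made up 63.0% ± 1.95 of the summed hexokinase TPM in brain and 40.4% ± 0.0484 in spleen (SD, n = 2). The groups did not overlap, and with 2 libraries against 2 an exact two-sided permutation test cannot give a p under 0.333. These ratios are taken within a library and so do not depend on the scaling between libraries.

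**Figure D1:**
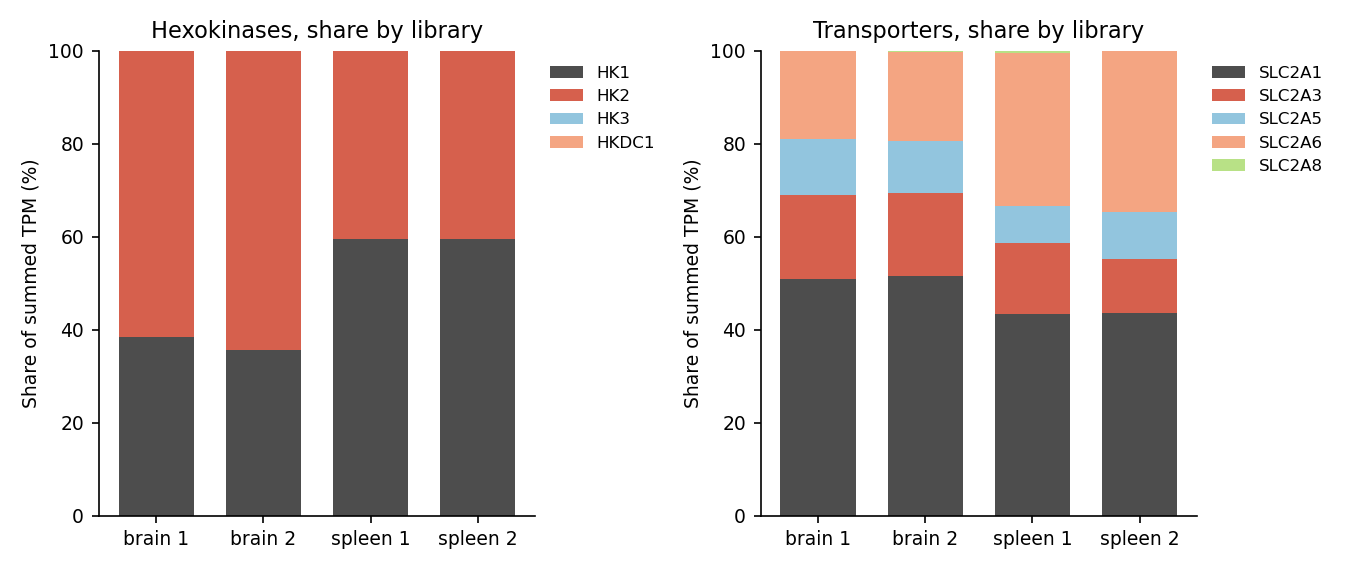
Share (%) of each gene in the summed TPM of the hexokinases (left) and of the glucose transporters (right), 1 bar per library. HK2 takes 61.6% and 64.4% in brain, 40.4% and 40.5% in spleen, and among transporters the share of SLC2A6 is 19.0% on average in brain and 33.9% in spleen.

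HK3, an isozyme of white blood cells of the myeloid line (ENSG00000160883, chromosome 5, 176880869 to 176899346, minus strand), had 1 count in brain replicate 1 and 0 in the other libraries. HKDC1, a hexokinase-like gene next to HK1 (ENSG00000156510, chromosome 10, 69220332 to 69267552, plus strand), had 0 counts in all 4. The limit that a count of 0 allows, 3 counts, corresponds to between 0.0813 and 0.114 CPM in these libraries and covers counting error only. Neither gene was tested, and no difference between sites was detectable at this depth.

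SLC2A1 (ENSG00000117394), on chromosome 1 (42925353 to 42958893, minus strand), had 105 and 98.9 CPM in brain and 39.5 and 46.6 CPM in spleen. Both brain libraries were well above both spleen libraries, by more than the gap within either group. Its log2 fold change was 1.24 ± 0.16, with an adjusted p of 0.0116, and the ratios within occasions were 1.41 and 1.09.

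SLC2A3 (ENSG00000059804), on chromosome 12 (7919230 to 8019007, minus strand), had 52.2 and 49.4 CPM in brain and 20.9 and 19.6 CPM in spleen. Both groups were tight, and the ratios within occasions, 1.32 and 1.33, were nearly equal. Its log2 fold change was 1.33 ± 0.16, with an adjusted p of 0.00966. SLC2A14 is a near copy of SLC2A3, and SLC2A3P1 is a processed pseudogene of it, so reads of this family are uncertain. SLC2A14 had 0.142 CPM in brain and 0.161 CPM in spleen on average, and SLC2A3P1 had 3.48 CPM in brain replicate 2 and 0 in the other libraries. HK2P1, a pseudogene of HK2, had at most 0.0811 CPM. With the near copies added to SLC2A3 and to HK2 before the fit, an alternative chosen after seeing the data, the same 3 members were called.

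SLC2A5 (ENSG00000142583), on chromosome 1 (9035106 to 9088478, minus strand), had 23.5 and 24.9 CPM in brain and 10.2 and 15.1 CPM in spleen. The groups did not overlap, and the spread lay mostly in spleen. The log2 fold change of 0.94 ± 0.22 did not pass (adjusted p = 0.0755). With the replicate number as a block it passed (log2 fold change 0.96, adjusted p = 0.00118). It also passed in the fits that leave 1 spleen library, at 0.63 without the first and 1.26 without the second. It did not pass without brain replicate 1, without brain replicate 2 or by DESeq2 with the block (adjusted p = 0.0758). It passed in 6 of the 15 alternatives.

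SLC2A6, which encodes a transporter of intracellular membranes (ENSG00000160326, chromosome 9, 133471094 to 133479127, minus strand), had 38.0 and 35.1 CPM in brain and 28.6 and 36.2 CPM in spleen. The groups overlapped. The log2 fold change was 0.17 ± 0.18 (adjusted p = 0.609), and the ratios within occasions were 0.41 and -0.044. Without spleen replicate 2, a fit that leaves 1 spleen library, the log2 fold change was 0.36, and without spleen replicate 1 it was -0.037. SLC2A8, which encodes another intracellular transporter (ENSG00000136856, chromosome 9, 127397138 to 127408424, plus strand), had 0 and 2 counts in brain and 1 and 0 in spleen, all under the limit of 3 counts.

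**Figure D2:**
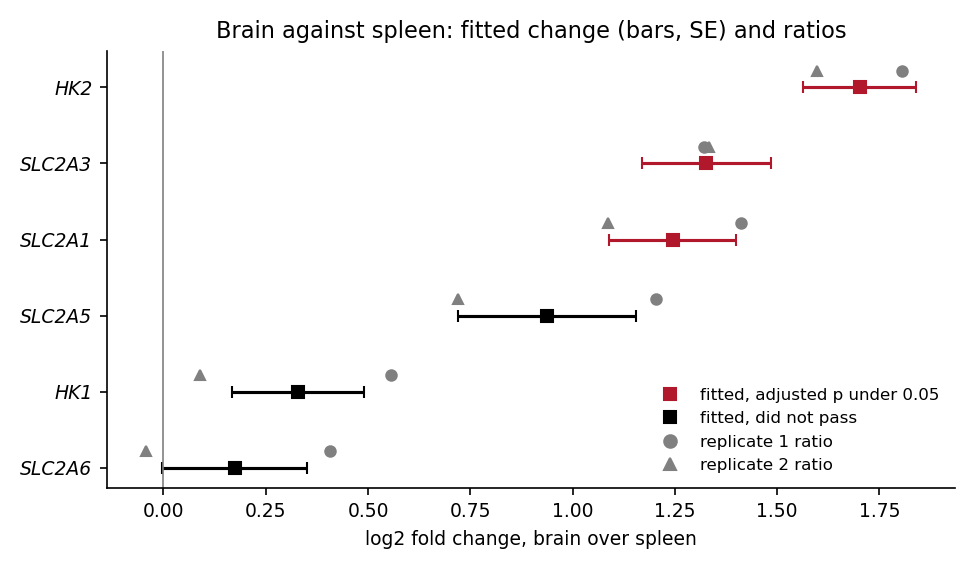
Fitted log2 fold change of brain over spleen for the 6 tested genes (squares, bars SE), with the log2 CPM ratio within each occasion (circle for replicate 1, triangle for replicate 2). HK2, SLC2A3 and SLC2A1 are at 1.70, 1.33 and 1.24, and the ratio of replicate 2 is below that of replicate 1 for each gene except SLC2A3.

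Ordered by TPM in brain, HK2 (68.4 ± 0.285, SD, n = 2) came first, then SLC2A1 (58.0 ± 1.17), HK1 (40.3 ± 3.53), SLC2A6 (21.5 ± 0.376), SLC2A3 (20.3 ± 0.0540) and SLC2A5 (13.1 ± 0.626). In spleen the order was HK1 (26.6 ± 0.552), SLC2A1 (20.8 ± 0.852), HK2 (18.1 ± 0.338), SLC2A6 (16.2 ± 1.22), SLC2A3 (6.44 ± 0.948) and SLC2A5 (4.29 ± 0.856). No neighbours in these orders overlapped between libraries, though the gaps between SLC2A6 and SLC2A3 in brain and between HK2 and SLC2A6 in spleen were small. HK2 stood first in brain and below HK1 and SLC2A1 in spleen. HK1 stood below SLC2A1 in brain and above it in spleen, and the last 3 genes came in the same order at both sites. SLC2A1 TPM is a lower bound, since 97.8 to 531 of its counts per library belonged to transcripts that GENCODE release 44 does not list, so its place beside HK2 in brain and HK1 in spleen is not settled. Summed over the 5 transporters, with SLC2A1 at that bound, the level was 113 ± 1.25 TPM in brain and 47.8 ± 1.83 TPM in spleen, and over the 4 hexokinases 109 ± 3.82 and 44.7 ± 0.890 TPM. The ratio of brain to spleen was between 1.16 and 1.59 times larger on TPM than on CPM for these genes, so TPM is used here for order and shares and CPM for the change between sites.

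**Figure D3:**
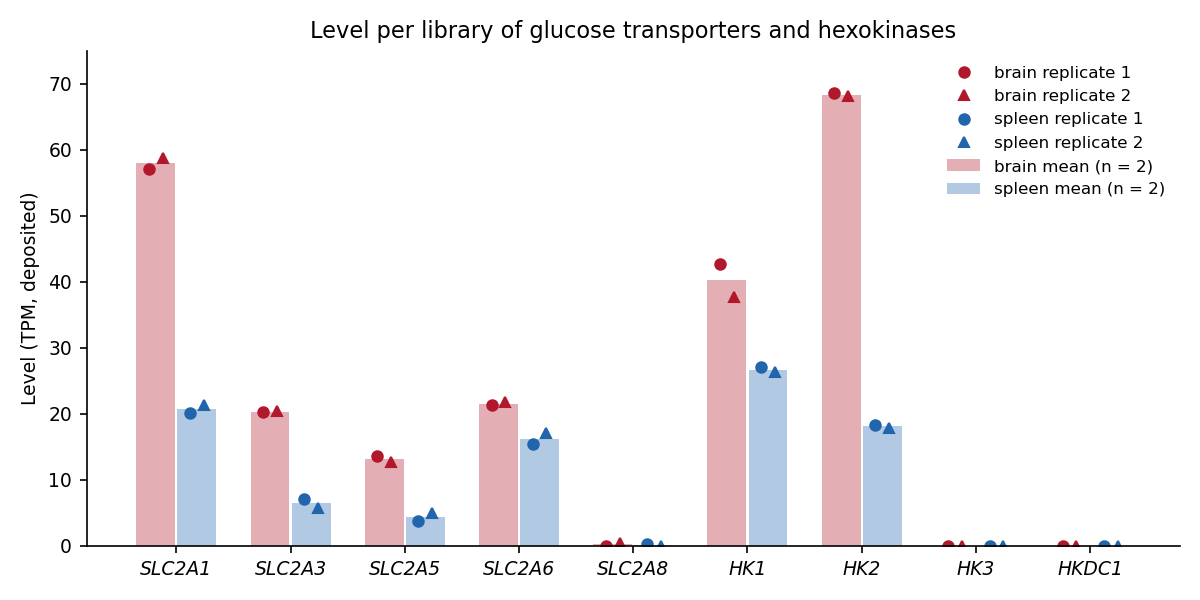
Level (TPM, as deposited and summed over transcripts) of the 9 genes in each library, with bars at the mean of 2 libraries. HK2 is the tallest in brain at 68.4 and stands below HK1 in spleen at 18.1 against 26.6, and SLC2A8, HK3 and HKDC1 sit at or near 0.

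Most of each gene's counts fell on 1 transcript. HK1-202, the MANE Select reference transcript, took 97.6% to 99.5% of the HK1 counts. HK2-201, the reference transcript, took 89.0% to 94.8% of the HK2 counts, and HK2-202, which starts further downstream, had 1179 and 1016 estimated counts in brain and 142 and 241 in spleen. Both HK2 transcripts were thus higher in both brain libraries than in either spleen library. SLC2A3-201 took 94.6% to 97.0% of the SLC2A3 counts. For SLC2A1 the largest share, 76.5% to 84.1%, went to SLC2A1-208, a transcript of 2398 bases that GENCODE classes as subject to nonsense-mediated decay. The reference transcript SLC2A1-203, of 3667 bases, took 6.55% to 8.26%, and both were higher in each brain library than in either spleen library. SLC2A5-202 took 81.3% to 90.9% of the SLC2A5 counts, with 6.36 and 6.99 TPM in brain and 2.77 and 3.76 TPM in spleen. The shorter SLC2A5 transcripts SLC2A5-207 and SLC2A5-210 had 2.97 and 2.89 TPM in brain replicate 1, against 0 and 0.513 in brain replicate 2, and 0 in spleen. SLC2A6-202 took 61.7% to 76.8% of the SLC2A6 counts. The deposited estimates carry no error of their own, so these shares are given as a description.

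The rest of the glucose pathway was described from fixed lists. Of 9 other SLC2A genes 4 were tested and 0 called. SLC2A13, a proton-linked myo-inositol carrier, had 13.2 and 14.1 CPM in brain and 11.6 and 3.25 CPM in spleen (log2 fold change 0.87 ± 0.66, adjusted p = 0.526). With the replicate block it was 1.10, which passed in edgeR (adjusted p = 0.00202), and 1.09 in DESeq2, which did not (adjusted p = 0.191). Leaving out spleen replicate 1 gave 2.02, and leaving out spleen replicate 2 gave 0.25. SLC2A11 had a log2 fold change of 0.52 ± 0.18 (adjusted p = 0.174). SLC2A4, the insulin-regulated GLUT4 of muscle and fat, averaged 0.180 CPM in brain and 0.120 CPM in spleen. Of 6 sodium-coupled and SWEET sugar transporters 3 were tested and 0 called, with SLC50A1 at -0.23 ± 0.18 and SLC5A10 at -1.06 ± 0.46.

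Among 7 other genes that add or remove the phosphate of glucose, 3 were tested and 0 called. ADPGK, an ADP-dependent glucokinase, had 82.1 and 83.5 CPM in brain and 77.9 and 80.7 CPM in spleen (log2 fold change 0.06 ± 0.14). G6PC3, a widely expressed glucose 6-phosphatase, had 38.3 and 37.4 CPM in brain and 46.9 and 58.4 CPM in spleen (log2 fold change -0.48 ± 0.17, adjusted p = 0.174).

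Of 20 genes of core glycolysis after hexokinase 18 were tested, 3 were called higher and 0 lower. Those called were SLC16A3, a lactate exporter (log2 fold change 5.12 ± 0.26, adjusted p = 0.00024), ENO2, an enolase (4.35 ± 0.32, adjusted p = 0.00132), and ALDOC, an aldolase (3.34 ± 0.17, adjusted p = 0.00024). SLC16A3 had 27.4 and 24.7 CPM in brain and only 0.607 and 0.910 CPM in spleen. ENO2 had 9.68 and 11.2 CPM in brain and 0.637 and 0.356 CPM in spleen. ALDOC had 84.8 and 74.8 CPM in brain and 7.64 and 8.07 CPM in spleen. The median of the 18 was 0.11, beside 0.04 over all genes. The number called higher was 3 or 4 in the alternatives that kept all 4 libraries. Of 16 genes of other routes of hexose phosphates 15 were tested and 0 called, with AKR1B1, an aldose reductase, at -0.48 ± 0.15 and PGM2, a phosphoglucomutase, at 0.07 ± 0.18. The median of these 15 was -0.15.

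Of 20 genes that control transporters or hexokinases or partner them 19 were tested and 1 was called. It was ARRDC3, an alpha-arrestin of the family of TXNIP, with 4.38 and 2.90 CPM in brain and 0.849 and 0.752 CPM in spleen (log2 fold change 2.18 ± 0.34, adjusted p = 0.0259). The number called was 3 with the block in edgeR and 1 with the block in DESeq2 or with the GC and length trend also removed. Over all genes those fits called 1853, 421 and 2150. A further pair of this list was chosen after its values were seen. TXNIP, which promotes removal of GLUT1 from the cell surface, had a log2 fold change of 0.54 ± 0.16 (adjusted p = 0.124), and VDAC1, the mitochondrial channel on which hexokinases dock, one of -0.34 ± 0.15 (adjusted p = 0.254).

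**Figure D4:**
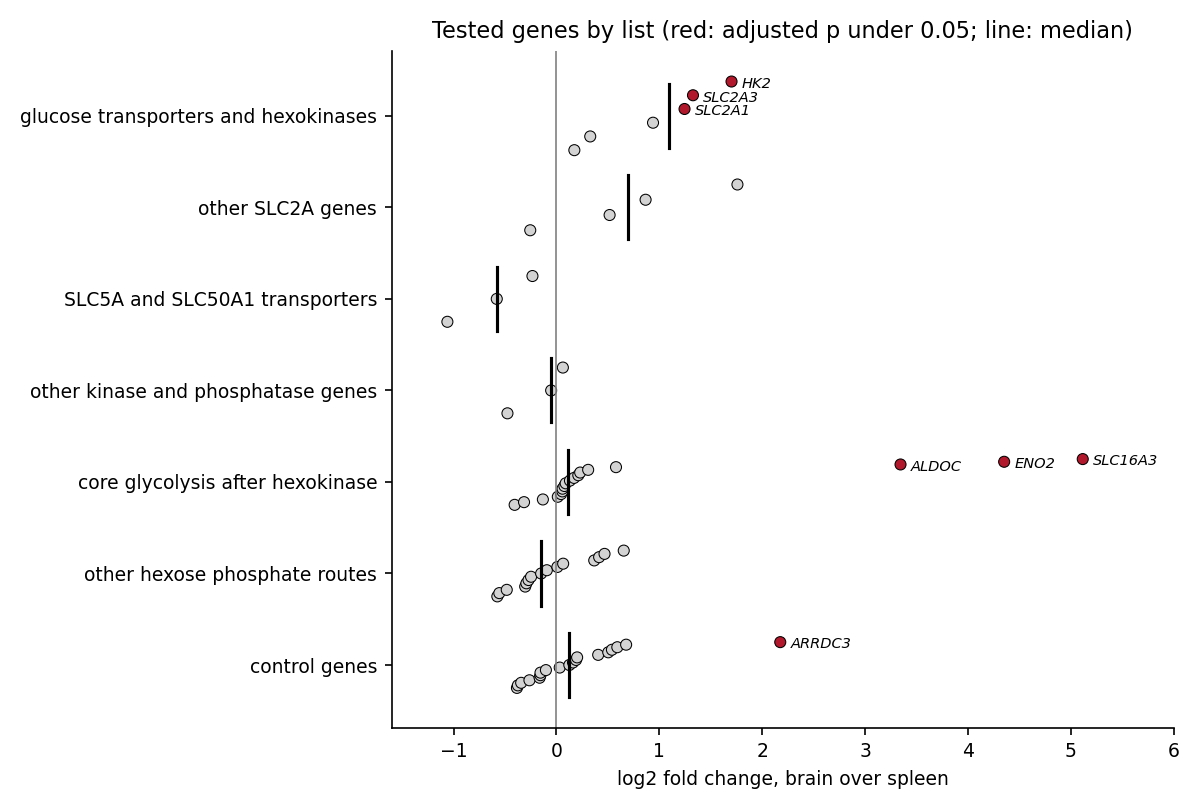
Log2 fold change of brain over spleen for each tested gene of the 9 genes and of 6 further lists, 1 point per gene. Red points passed an adjusted p of 0.05, vertical lines are list medians, and the medians run from -0.58 for the SLC5A and SLC50A1 transporters to 1.09 for the glucose transporters and hexokinases.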

How the data were processed

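RNA sequencing of poly(A) RNA from 2 brain and 2 spleen libraries was used. The tools named in the submitters' processing notes are kallisto 0.42.4, cutadapt 1.5, DESeq2 and bcl2fastq 1.8.4, and the builds are GRCh38 and GRCm38. The strand option and the annotation release were not given in the sources used here, so reads of overlapping antisense genes may not be separated. Per transcript, human and mouse, the authors deposited an estimated count and a TPM that is scaled over both species. Per human gene, the authors deposited the estimated count as a whole number. Sums of transcripts by GENCODE release 44 came within 1 count of that table for 74.2% to 74.8% of the genes with more than 50 counts. Both deposited gene tables hold a column that matches no sample, 2 in all, and neither column was used. The deposited table of log values was not used.

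Symbols were matched by identifier to GENCODE release 44 (56322 of 65217 identifiers). Low counts were removed with filterByExpr, given the groups, and the rest tested by edgeR 4.0.16 (R 4.3.3, robust quasi-likelihood fit, TMM factors) with Benjamini-Hochberg adjustment over 17075 genes. The count test was applied to rounded estimated counts. The SE is that implied by the test statistic. The test was checked on simulated counts with the same spread for every gene and both groups. That check does not cover the wider spread between the spleen libraries. Gene depths were 26266136 to 36913437 counts. Within each group the pair of libraries differed beyond sampling (mean chi-square per gene 9.36 in brain and 64.4 in spleen, where sampling gives about 1).

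Per the labels the replicate number is an occasion of the whole experiment, so it pairs brain with spleen. Across genes, the deviations from group means of libraries with the same number had a correlation of 0.00207. The block was an alternative. Whether the libraries of an occasion share mice is not stated.

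The members, gene lists and tests were chosen with earlier results of these data known. The rule named all 9 members, every called gene of a list (or its 2 most abundant where none was called) and, for each called member, the 3 genes nearest in centred log2 CPM over the 4 libraries. Protein sequences were planned and not analysed here.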

Additional observations from a re-analysis of the deposited data

How the results depend on the processing

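Of 90 values of the 6 tested members over 15 alternatives, 81 kept their direction and side of the threshold, 8 passed where the main test did not and 1 changed sign. SLC2A6 ranged from -0.037 to 0.36 when 1 library was left out. The number of members called higher was 3 or 4 in the alternatives that kept all 4 libraries, and the number called lower was 0 in every alternative. The SLC2A5 log2 fold change passed without either spleen library, by DESeq2 (0.89, adjusted p = 0.0294), without a filter (0.94, adjusted p = 0.00017), with the replicate block (0.96) and with the trend of GC and length removed together with the block (0.81, adjusted p = 0.000285). DESeq2 with the replicate block gave 0.92 (adjusted p = 0.0758). In edgeR the block changed no other call among the members. With the trend of GC and length removed, without the block, the log2 fold changes were 1.46 for HK2, 1.24 for SLC2A1 and 1.12 for SLC2A3. SLC2A3 was then below SLC2A1, where the main test had it above.

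Over all genes the number called was 345 (279 higher, 66 lower). It was 915 by DESeq2 (526 higher, 389 lower), 2123 without a filter (1269 higher, 854 lower), 210 with the stricter filter, 201 among protein-coding genes alone (184 higher, 17 lower) and 1853 with the replicate block (1278 higher, 575 lower). DESeq2 with the replicate block called 421 (314 higher, 107 lower). It was 731 with the trend of GC and length removed (440 higher, 291 lower) and 2150 with that removal and the block (1082 higher, 1068 lower). That removal moved the median of all genes by -0.12 (log2). Without 1 library the number ran from 404 to 6807, the highest without spleen replicate 1. The control list had 4 genes called without a filter, 3 with the block in edgeR, 1 with the block in DESeq2 and 1 to 11 without 1 library, and core glycolysis 3 to 11 without 1 library.

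Of 209 values of the tested list genes that the rule named, 191 kept their direction and side of the threshold, 13 passed where the main test did not and 5 changed sign. TXNIP, VDAC1 and the further genes named in the text were not followed over the alternatives. The 13 were values of SLC2A13 and AKR1B1 (3 each), G6PC3 and SLC5A10 (2 each), and SLC50A1, SLC2A11 and PGM2 (1 each). The 5 were values of PGM2 and ADPGK, neither called in the main test. PGM2 was at -0.15 with the trend of GC and length removed, with and without the block, and ran from -0.12 to 0.25 without 1 library. ADPGK ran from -0.014 to 0.10 without 1 library. The cause of these shifts was not tested. TPM over human transcripts alone was 2.11% to 2.15% higher in brain and 6.63% to 6.83% higher in spleen for the 6 members.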

Other observations

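The profiles nearest to each called member were sought among 14997 tested genes with a symbol, by Euclidean distance of centred log2 CPM over the 4 libraries. Nearest to HK2 were HIVEP2 (distance 0.0899, 48.3 CPM in brain and 15.2 CPM in spleen), TNS1 (0.135) and MYLIP (0.149). Nearest to SLC2A3 were CYP51A1 (0.0607, 128 and 51.5 CPM), MSMO1 (0.0779, 88.0 and 34.4 CPM) and YPEL2 (0.0814). CYP51A1 and MSMO1 encode enzymes of cholesterol synthesis. Nearest to SLC2A1 were PLEKHH1 (0.0252, 1.09 and 0.435 CPM), OTUD1 (0.0371, 35.5 and 15.3 CPM) and ANG (0.0675, 0.478 and 0.175 CPM). With 4 libraries in 2 groups such distances mostly order genes by their change between sites, and they are given as a description.

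SLC2A13 had 3.25 CPM in spleen replicate 2 and 11.6 to 14.1 CPM in the other 3 libraries. Its log2 ratio of brain to spleen was 0.19 in the first occasion and 2.11 in the second.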
